A study of Homo sapiens with 12 samples.

Results

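The genes described here are matrix metalloproteinases (MMPs), their tissue inhibitors (TIMPs) and the urokinase system, which activates plasminogen. The 9 genes MMP1, MMP3, MMP9, MMP10, MMP14, TIMP1, TIMP2, PLAU and PLAUR were chosen from their family names with earlier results of these data known, among them the low MMP1 level after knock-down in vehicle. Of these, 7 had a row among the 17013 genes of the processed table, and MMP3 and MMP9 were not analysed here. The samples were 12 mRNA-seq libraries of HCC1806, an established triple-negative breast cancer cell line, in 4 groups of 3. Cells carried either non-targeting control siRNA (siNT) or a pool of siRNAs against MLK4 (siMLK4), a mixed-lineage kinase encoded by MAP3K21. Each siRNA group was given vehicle (DMSO in the labels, untreated in the study's methods) or 1 μM doxorubicin, a topoisomerase II poison, for 24 h. The study describes vehicle or untreated cells alongside the treated ones, while the sample titles mark the vehicle libraries as t0 and the doxorubicin libraries as t24. If the vehicle libraries were taken at the start of treatment, the drug and the time in culture cannot be told apart. All groups shared the same line and the transfection step, and the design holds 1 cell line and 1 siRNA pool, so an effect of the pool beyond its target cannot be told apart from the loss of MLK4. The triplicates were transfections of this 1 line, and p-values measure the spread between them. The libraries held 16759025 to 19302248 reads.

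MMPs are zinc-dependent endopeptidases that cut components of the extracellular matrix, and TIMPs are secreted proteins that bind and block their active sites. Urokinase, the product of PLAU, is held at the cell surface by its receptor, the product of PLAUR, and turns plasminogen into plasmin, which degrades fibrin and can activate some pro-MMPs. In tumours much of this machinery is made by stromal cells, but basal-like breast cancer lines also express part of it. The promoters of several of these genes are known targets of AP-1 (FOS and JUN family dimers) and ETS factors.

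The siRNAs and the sequences of the genes are given first, since they bear on what the siRNAs could pair with. The study lists 4 siRNAs for MLK4, shown as sense strands with the 7 bases opposite the guide's seed (bases 2 to 8 of the guide) in capitals.
siRNA 1, with the capitals also in 3′UTRs of MMP1 and MMP14: ggaaagaugcuCAGAGAGauu
siRNA 2, with the capitals also in TIMP2: aggagaagcccAAGGUAAauu
siRNA 3, with no match among the genes described: agaagaaacgaGAGGGAAuuu
siRNA 4, with matches again in MMP1 and MMP14: agaacagauugCAAAGAAauu
The first 19 bases of each occurred in annotated MAP3K21 transcripts (GENCODE 44). Matches were sought in the annotated 3′UTRs, with the capitals read as DNA. At least 1 of the 4 stretches was present for 3 of the 7 genes, against 58.2% of 13602 genes with an annotated 3′UTR. A match is a description of the sequence and not a site of action.

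RefSeq promoter sequences (GRCh38.p14, 250 bases before to 50 after the start) were at hand for 5 of the genes, MMP10, MMP14, TIMP1, PLAU with 2 starts and PLAUR. They were searched on both strands for the AP-1 motif TGANTCA, the ETS motif AGGAAG and an NF-κB consensus. The AP-1 letters were found in MMP10 and PLAUR, which are shown as 30 bases around the match on the strand of the gene, with the match in capitals.
MMP10, chr11:102780678-102780707, minus strand, AP-1 letters at -67: aaaacacatgcaTGAATCAtactgttggtg
PLAUR, chr19:43670338-43670367, minus strand, AP-1 letters at -186: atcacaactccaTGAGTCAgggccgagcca
The ETS letters were found in TIMP1, PLAUR and the second PLAU start, shown in the same way.
TIMP1, chrX:47582337-47582366, plus strand, ETS letters at -87: agtaatgcatccAGGAAGcctggaggcctg
PLAUR, chr19:43670167-43670196, minus strand, ETS letters at -15: caaaactgcctcCTTCCTgaggccagaagg
PLAU, chr10:73910899-73910928, plus strand, ETS letters at -221: caggtgcatgggAGGAAGcacggagaattt
Of 35116 RefSeq promoters, 7.71% held the AP-1 letters, 33.6% the ETS letters and 6.52% the NF-κB consensus, the last in none of the promoters of these genes. Among the 17305 promoters of genes with values the shares were 5.51%, 32.7% and 7.47%. The motif searches are descriptions of these windows.

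The knock-down was checked first. MAP3K21 (chr1:233327724-233385148, plus strand, GRCh38) had 632.1 ± 68.5 normalized reads (reads divided by the library's size factor, mean ± SD, n = 3) in siNT vehicle and 95.5 ± 7.31 in siMLK4 vehicle. With doxorubicin it had 795.1 ± 53.3 in siNT and 115.2 ± 22.1 in siMLK4. The siMLK4 libraries thus held 15.1% of the siNT level in vehicle and 14.5% with doxorubicin, and no siMLK4 library overlapped with a siNT library. In bulk libraries such as these, fewer cells expressing a gene and less of its RNA per cell cannot be told apart.

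The order of the genes by level differed between the siRNA groups. Levels are compared between genes only as normalized reads per kb of annotated exon. In siNT vehicle MMP1, the interstitial collagenase, was highest at 1222 ± 66.4 per kb, followed by PLAU at 836 ± 55.7, and the libraries of the 2 genes did not overlap. TIMP1 (545 ± 110) and TIMP2 (520 ± 2.8) came next with overlapping libraries, then MMP14 (455 ± 51), PLAUR (93.5 ± 18.4) and MMP10 (20.3 ± 2.7). In siMLK4 vehicle MMP14 (738 ± 74.5) and TIMP2 (705 ± 17.2) stood highest with overlapping libraries, and MMP1 was the fifth of 7 at 116 ± 18.4 per kb. With doxorubicin MMP1 was again first in siNT cells at 2017 ± 271 per kb. In siMLK4 cells with doxorubicin TIMP2 (630 ± 41.3), MMP14 (630 ± 49.1), MMP1 (461 ± 146) and TIMP1 (443 ± 37.5) came first, each overlapping with its neighbour among these 4. PLAUR and MMP10 were the lowest of the 7 in all 4 groups.

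**Figure D1:**
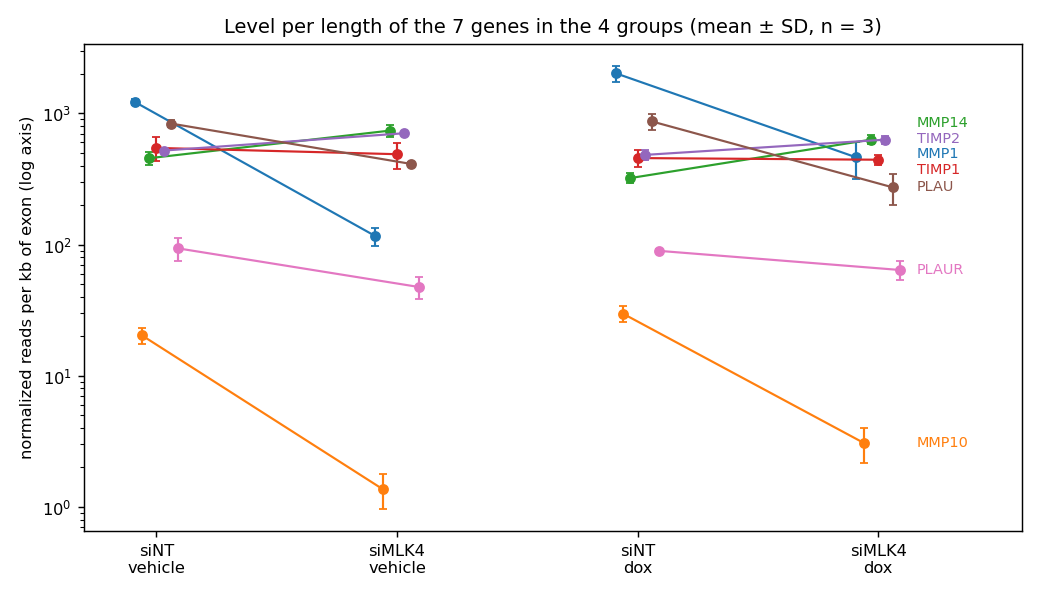
Mean normalized reads per kb of exon (log axis) of the 7 genes in the 4 groups, with SD over 3 libraries as bars and lines joining siNT to siMLK4 under the same treatment. MMP1 goes from 1222 to 116 per kb in vehicle and from 2017 to 461 with doxorubicin, while MMP14 goes from 455 to 738 and from 321 to 630.

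The first comparison asked what MLK4 knock-down did without drug. In siMLK4 vehicle cells 3 of the 6 genes other than MMP1 fell (MMP10, PLAU and PLAUR) and none rose past the thresholds. MMP1, whose low level there was known beforehand, is not counted. MMP10 had a row in the table only through its siNT level, as described below. A gene is called here when the adjusted p of limma's moderated test over all 17013 genes (two-sided, Benjamini-Hochberg) is under 0.01 and the log2 difference on the deposited variance-stabilized scale is over 0.75 in size. Over all genes 3.14% were called lower and 2.51% higher in this comparison. When reads were scaled by library totals, 64.6% of the called genes were higher instead of 44.4%, since that scaling shifts the median of all genes up by 0.12 on the log2 scale. The shift was 0.08 between the siRNAs under doxorubicin, 0.20 for doxorubicin in siNT cells and 0.16 in siMLK4 cells, and the changes below are relative to a median of all genes within 0.02 of 0.

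MMP1 (chr11:102789401-102798160, minus strand) encodes the collagenase that cuts native fibrillar collagens. With vehicle the 3 siNT libraries gave 3479, 3417 and 3138 normalized reads for MMP1, and the siMLK4 libraries 307.6, 371.7 and 272.4. The siMLK4 mean of 317.2 ± 50.3 was 9.48% of the siNT mean of 3345 ± 182, a log2 difference of -3.21 (SE 0.18). This value was known when the genes were chosen and is given as a description without a test. With doxorubicin MMP1 had 5976, 5927.5 and 4667 reads in siNT and 1215, 1683 and 885.5 in siMLK4 libraries. The highest siMLK4 library stood well under the lowest siNT library, and the level was 22.8% of that in siNT (log2 difference -2.12, SE 0.18, limma adjusted p = 4.2e-06).

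MMP10 (chr11:102770502-102780628, minus strand), or stromelysin 2, lies beside MMP1 in the chromosome 11 cluster and cuts proteoglycans and other matrix proteins. It was the least abundant of the genes, with 41.1, 33.22 and 32.56 normalized reads in siNT vehicle and 2.004, 1.993 and 3.243 in siMLK4 vehicle. The siNT vehicle libraries held 96 reads in all and the siMLK4 vehicle libraries 7, a ratio of 14.8 with a 95% counting interval of 6.93 to 37.9, which covers counting error only. The variance-stabilized log2 difference of -1.15 (SE 0.11, limma adjusted p = 5.5e-06) understates this ratio, because the transform compresses low counts. Every gene of the table had a highest group mean of at least 10.67 normalized reads, which MMP10 reached only in siNT cells. Its row thus rests on the groups where it was high, and its calls between the siRNAs are descriptions. With doxorubicin MMP10 had 45.22, 60.06 and 51.71 reads in siNT and 6.784, 5.837 and 3.629 in siMLK4 libraries, which again did not overlap (log2 difference -1.23, SE 0.11, adjusted p = 4.2e-06). Of the 50-base stretches of its transcripts, 3.36% also occur in MMP3 transcripts, and how reads from these stretches were counted was not checked.

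PLAU (chr10:73909177-73917496, plus strand), the urokinase gene, had 2631.5, 2303 and 2465 normalized reads in siNT vehicle and 1181, 1258.5 and 1195 in siMLK4 vehicle. Knock-down left 49.1% of the control level (log2 difference -0.99, SE 0.15, limma adjusted p = 0.00038). With doxorubicin siNT libraries had 2224, 2532 and 2911 reads and siMLK4 libraries 791.1, 598.7 and 1022.5. In both treatments every siMLK4 library was below every siNT library, and under the drug 804.1 ± 212 reads against 2555.5 ± 344 left 31.5% (log2 difference -1.63, SE 0.15, limma adjusted p = 8.5e-06). Exons of C10orf55 on the opposite strand overlap 31% of the exon bases of PLAU. The study's methods state that reads were counted by strand, with the reverse setting, and C10orf55 itself had at most 48.9 normalized reads in any library.

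PLAUR (chr19:43646095-43670547, minus strand), the urokinase receptor gene, had 489.7, 432.9 and 327.8 normalized reads in siNT vehicle against 167.3, 226.2 and 241.1 in siMLK4 vehicle. The groups did not overlap, and the log2 difference of -0.83 (SE 0.15, limma adjusted p = 0.0013) was past both thresholds. The call was lost without siNT vehicle replicate 1 (-0.72), without siMLK4 vehicle replicate 1 (-0.70), and with library totals as scaling (-0.70). It was also lost when only the vehicle groups were fitted (-0.83, limma adjusted p = 0.021), and in that fit with the replicate number as a block (adjusted p = 0.1). With doxorubicin PLAUR had 394, 388.9 and 413.7 reads in siNT and 279.8, 242.6 and 333.9 in siMLK4 libraries, a log2 difference of -0.43 (SE 0.15, limma adjusted p = 0.053) that was not called.

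MMP14 (chr14:22836560-22849041, plus strand) encodes MT1-MMP, the membrane-anchored MMP that activates pro-MMP2 at the cell surface together with TIMP2. Unlike the 4 genes above it stood higher in siMLK4 cells, with 3481, 3038 and 3717 normalized reads in vehicle against 2337, 1866 and 2110.5 in siNT. That difference of 0.68 (SE 0.12, limma adjusted p = 0.0008) was under the fold threshold. It passed without siNT vehicle replicate 1 (0.76), without siMLK4 vehicle replicate 2 (0.76) and with library totals (0.82). With doxorubicin the siMLK4 libraries had 3027, 3057 and 2650.1 reads and the siNT libraries 1626, 1400 and 1420.4. The siMLK4 mean was 1.96 times the siNT mean, and the log2 difference of 0.95 (SE 0.12, limma adjusted p = 7.5e-05) was called. MMP14 was the 1 gene of the 7 called higher under the drug, while MMP1, MMP10 (with the limit given above) and PLAU were the 3 called lower. MMP1 was chosen with its low level under the same siRNA pool in vehicle known, so its call is not independent of that choice. Over all genes 2.66% were called higher and 2.93% lower in that comparison. With library totals 61.1% of its called genes were higher, instead of 47.6%.

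The 2 inhibitors were not called in any comparison. TIMP2 (chr17:78852977-78925387, minus strand) had 3226, 3244 and 3209.6 normalized reads in siNT vehicle and 4489, 4276 and 4365.5 in siMLK4 vehicle. The libraries did not overlap, but the log2 difference of 0.43 (SE 0.10, limma adjusted p = 0.0047) was under the fold threshold, as was that of 0.38 (SE 0.10, adjusted p = 0.01) with doxorubicin. Of the TIMP2 transcript stretches, 2.76% also occur in CEP295NL. TIMP1 (chrX:47582408-47586789, plus strand) ranged from 568.1 to 944.1 normalized reads over the 12 libraries with all neighbouring groups overlapping. Its largest log2 difference was -0.23 (SE 0.16), for doxorubicin in siNT cells, and its limma adjusted p lay between 0.25 and 0.90 in the 5 comparisons.

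**Figure D2:**
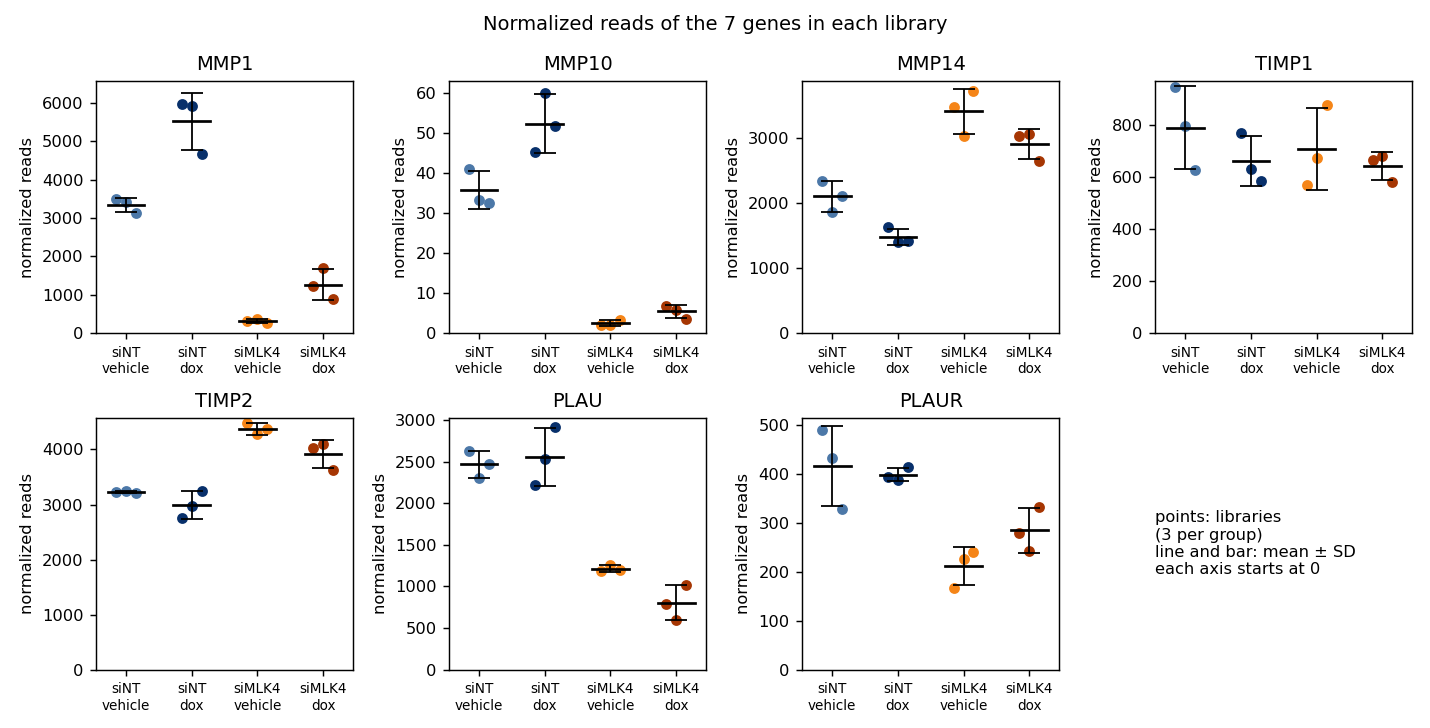
Normalized reads of the 7 genes in each of the 12 libraries (points), with the mean and SD of each group of 3, on axes that start at 0. MMP1, MMP10 and PLAU are lower in every siMLK4 library than in every siNT library, and MMP14 and TIMP2 are higher in every siMLK4 library.

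The second comparison asked how the genes responded to doxorubicin. In siNT cells none of the 6 genes other than MMP1 was called, against 12.1% of all genes called higher and 10.6% called lower. At an unadjusted limma p under 0.05, MMP10 and MMP14 passed, as did 10551 of all 17013 genes. Limma-voom on the recovered reads also called none of the 6. MMP1 had a mean of 3345 ± 182 normalized reads in vehicle and 5524 ± 742 with the drug, with no overlap of libraries, a log2 difference of 0.71 (SE 0.18). It is given without a test, since the siNT vehicle libraries are 1 side of the MMP1 difference known beforehand. MMP14 had 2104 ± 236 and 1482 ± 125 (log2 difference -0.49, SE 0.12, limma adjusted p = 0.0026), also without overlap. With library totals 72.2% of the called genes were higher in siNT cells and 69.4% in siMLK4 cells, instead of 53.4% and 54.4%.

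In siMLK4 cells none of the 6 genes other than MMP1 was called with doxorubicin, against 12.6% of all genes called higher and 10.6% lower. PLAU and PLAUR passed an unadjusted limma p under 0.05 there, as did 10654 of all 17013 genes. Limma-voom likewise called none of the 6. MMP1 had a mean of 317.2 ± 50.3 normalized reads in vehicle and 1261 ± 401 with the drug, 3.98 times as much (log2 difference 1.80, SE 0.18). This is a description without a test, since the low MMP1 level of these vehicle libraries was known beforehand. The highest MMP1 library of siMLK4 cells with doxorubicin, at 1683 reads, was under the lowest siNT vehicle library at 3138. PLAU had 1211.5 ± 41.3 reads in vehicle and 804.1 ± 212 with the drug, with libraries that did not overlap (log2 difference -0.59, SE 0.15, limma adjusted p = 0.0045). It was not called, but passed without siMLK4 doxorubicin replicate 3 (-0.77). MMP10 had 7 reads in the 3 vehicle libraries and 19 with doxorubicin, a ratio of 2.28 with a 95% counting interval of 0.919 to 6.42.

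The third comparison was the difference between the doxorubicin responses (siMLK4 minus siNT). None of the 6 genes other than MMP1 passed, against 0.0999% of all genes called higher and 0.176% called lower, and limma-voom called none of them either. At an unadjusted limma p under 0.05, PLAU passed, as did 2469 of all 17013 genes. The difference for PLAU was -0.63 (SE 0.22, limma adjusted p = 0.18). For MMP1 the difference was 1.09 (SE 0.26), again a description without a test, as it holds the vehicle values known beforehand.

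**Figure D3:**
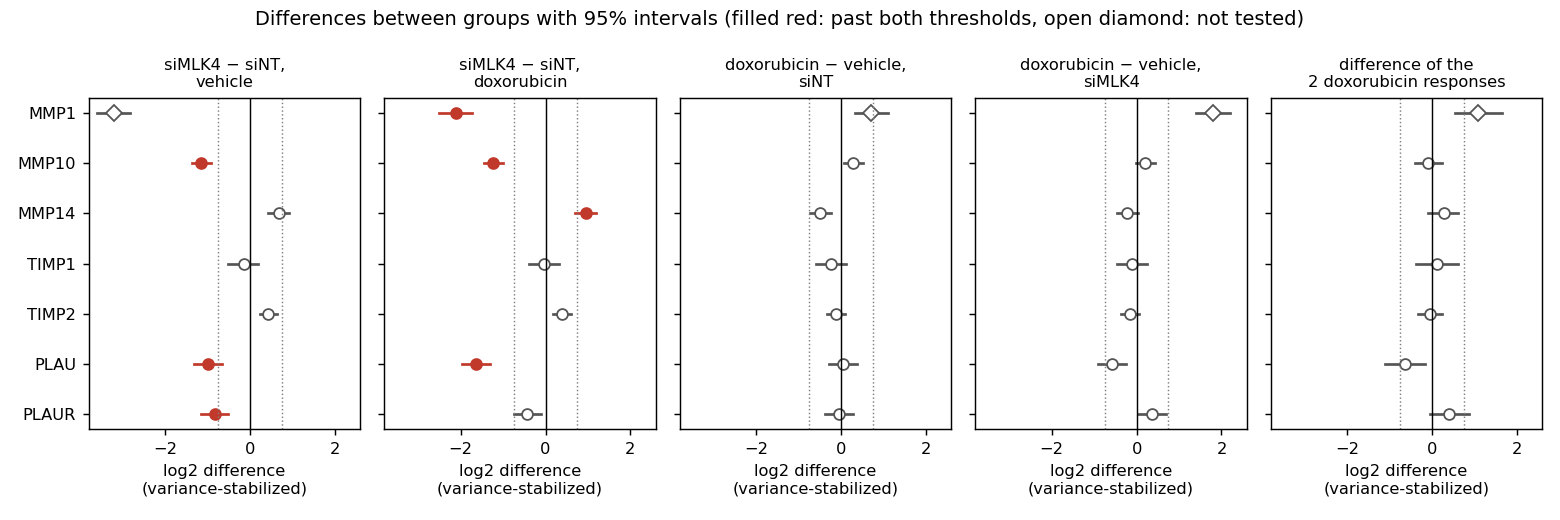
Log2 differences of the 7 genes on the variance-stabilized scale in the 5 comparisons, with 95% intervals as lines, dotted lines at the fold threshold of 0.75 filled red points for genes past both thresholds, and open diamonds for MMP1 where the vehicle values known beforehand enter and no test is given. Red points lie to the left in both siRNA comparisons for MMP10 and PLAU, and no point is red among the responses to doxorubicin. The red points of MMP10 are descriptions, since its row rests on its siNT level and it could only be called lower there.

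Across the 12 libraries the values of several genes went together. MMP1 and MMP10 had a Pearson r of 0.94, and MMP14 and TIMP2 one of 0.91. MMP1 had an r of -0.90 with MMP14 and -0.93 with TIMP2. PLAU was closer to MMP10 (0.86) than to MMP1 (0.67), and the r of TIMP1 with the others lay between -0.14 and 0.35. These are descriptions over 12 libraries of 4 groups, and the points share the siRNA and drug effects.

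By the same measure, over 11453 protein-coding genes with a mean of at least 50 normalized reads, the 5 genes most like MMP1 included CERS2 (a ceramide synthase, 0.988), BRI3BP (0.982), PPP6R1 (a regulatory subunit of protein phosphatase 6, 0.980) and KPNA4 (an importin alpha, 0.978). CERS2 had 3062 ± 36 normalized reads in siNT vehicle and 2156 ± 69.6 in siMLK4 vehicle. The genes most like PLAU were LIF (a cytokine of the IL6 family, 0.987), STAMBPL1 (a deubiquitinase, 0.985), MYC (0.979), EZR (which links membrane and actin, 0.976) and SELENOT (0.976). LIF had 122.7 ± 8.24 and 145.8 ± 19 reads in siNT vehicle and doxorubicin and 69.25 ± 3.86 and 45.35 ± 8.53 in siMLK4.

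Of 19 other listed genes of the plasminogen system 15 had values. In vehicle 3 of them were lower in siMLK4 cells and none higher, where 3.14% of all genes were called lower and 2.51% higher, with a median log2 difference of -0.22 against 0.01 for all genes. All 3 encode serpins, while the listed serpin genes SERPINB6 (-0.46) and SERPINF2 (0.18) were not called. SERPINB2, which encodes the urokinase inhibitor PAI-2, went from 2487 ± 254 to 607.1 ± 61.6 normalized reads (log2 difference -1.94, SE 0.14, limma adjusted p = 6.6e-07). SERPINE2, which encodes protease nexin 1, went from 2608 ± 466 to 403.1 ± 65.2 (-2.54, SE 0.13, adjusted p = 9.7e-08). SERPINB8 went from 803.9 ± 101 to 355.9 ± 27.4 (-1.07).

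With doxorubicin these 3 serpins, PLAT and ANXA2 were lower in siMLK4 than in siNT cells and LRP1 was higher, 5 and 1 of 15 where 2.93% of all genes were called lower and 2.66% higher, with a list median of -0.46 against 0.02. PLAT encodes tissue plasminogen activator, ANXA2 a cell-surface plasminogen co-receptor, and LRP1 the endocytic receptor that clears activator and inhibitor complexes. PLAT had 941.9 ± 31.6 normalized reads in siNT vehicle, 941.1 ± 177 in siNT doxorubicin, 936 ± 51.1 in siMLK4 vehicle and 349.5 ± 76.7 in siMLK4 doxorubicin. It was thus low in 1 group of 4, and the difference of its doxorubicin responses was -1.30 (SE 0.20, limma adjusted p = 0.0073). Without any 1 of 11 of the 12 libraries (all but siMLK4 doxorubicin replicate 3) that difference stayed between -1.38 and -1.16 but its adjusted p was 0.014 to 0.03, above the threshold, and the call was also lost with log2(reads + 0.25) (-1.43, adjusted p = 0.01). PLAU and PLAT, the genes of the 2 activators, both had their lowest group mean in siMLK4 cells with doxorubicin. In siNT cells the drug raised PLGRKT, a plasminogen receptor, and lowered ENO1 and LRP1, 1 and 2 of 15 where 12.1% of all genes were called higher and 10.6% lower. In siMLK4 cells it raised SERPINE2 and lowered PLAT, ENO1, ANXA2, S100A10 and LRP1, 1 and 5 of 15 where 12.6% of all genes were called higher and 10.6% lower. Of these, ANXA2 and S100A10 encode the 2 partners of the annexin A2 heterotetramer. Calls of 3 of these genes were lost when 1 library was left out. For PLGRKT this was vehicle replicate 1 (0.65) or the third doxorubicin replicate (0.69). For ANXA2 between the siRNAs under the drug it was replicate 3 of siNT (-0.74) or replicate 2 of siMLK4 (-0.70). For LRP1 in the same comparison it was replicate 1 (0.88) or 3 (0.88) of siNT and replicate 1 (0.93) or 2 (0.85) of siMLK4, with a limma adjusted p of 0.02 to 0.025. The fall of LRP1 with the drug in siMLK4 cells was lost without vehicle replicate 1 (-0.59) or 2 (-0.77), or without replicate 1 (-0.79) or 3 (-0.69) of the treated libraries.

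Of 18 other MMPs 8 had values. With doxorubicin in siMLK4 cells 1 was called higher and 1 lower, where 12.6% of all genes were called higher and 10.6% lower. Between the siRNAs under doxorubicin 1 was called higher and 0 lower, where 2.66% and 2.93% were. None of the 8 was called for doxorubicin in siNT cells, where 12.1% of all genes were higher and 10.6% lower. None was called for the siRNAs in vehicle (2.51% higher and 3.14% lower) or the difference of responses (0.0999% and 0.176%). MMP15, a membrane-type MMP, rose with doxorubicin in siMLK4 cells from 461.5 ± 34.8 to 955.5 ± 111 normalized reads (log2 difference 0.97, limma adjusted p = 8.1e-06). In siNT cells MMP15 had 480.7 ± 48.7 reads in vehicle and 811.8 ± 49.3 with the drug, without overlap (0.70, limma adjusted p = 0.00013), under the fold threshold but past it in 5 of 22 alternatives. MMP13, a collagenase of the same chromosome 11 cluster as MMP1, fell with doxorubicin in siMLK4 cells from 94.89 ± 5.54 to 22.02 ± 8.35 (-1.17, adjusted p = 5.6e-06), with -0.44 (adjusted p = 0.011) in siNT cells. MMP25 was higher in siMLK4 than in siNT cells with doxorubicin (0.78, adjusted p = 0.0072), a call lost when any 1 of 7 libraries was left out (siNT vehicle replicate 2, each siNT doxorubicin library, siMLK4 vehicle replicate 2, and siMLK4 doxorubicin replicates 1 and 2), with values of 0.57 to 0.84. MMP2, the substrate of MMP14, had 90.57 ± 15 to 138.8 ± 13.2 reads by group and was not called.

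Of 9 other inhibitors and activators of MMPs 8 had values, and RECK, BSG, PCSK5 and PCSK6 were not called in any comparison. With doxorubicin 2 of the 8 were called higher and 2 lower in each siRNA group. Over all genes 12.1% were called higher and 10.6% lower in siNT cells, and 12.6% and 10.6% in siMLK4 cells. Between the siRNAs 2 were called lower in vehicle and 1 with doxorubicin, and none higher. Over all genes 3.14% and 2.93% were called lower there, and 2.51% and 2.66% higher. TIMP3, the matrix-bound TIMP, was lower in all 4 simple comparisons and went from 2699.8 ± 68.7 normalized reads in siNT vehicle to 336.5 ± 91.8 in siMLK4 with doxorubicin. TIMP4 fell with doxorubicin in both siRNA groups (-0.96 and -1.36). TFPI2, a Kunitz-type inhibitor of plasmin and other serine proteases, rose with the drug in both siRNA groups. Its siNT level was 206.3 ± 18.9 before and 1474 ± 68.5 after doxorubicin (2.57), and its siMLK4 level 61.15 ± 17.2 before and 912.4 ± 61.8 after (3.17). It was lower in siMLK4 than in siNT vehicle (-1.26). FURIN, the convertase that activates pro-MMP14, rose with the drug in both (0.79 and 0.91), in siNT cells not without vehicle replicate 1 (0.69) or doxorubicin replicate 2 (0.75).

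Among 17 sheddases and other matrix proteases 15 had values. Doxorubicin raised ADAM12, ADAMTS4 and CTSB in both siRNA groups, CTSL in siNT cells and ADAMTS15 in siMLK4 cells, and lowered none of the list. That was 4 of 15 raised in each siRNA group, where 12.1% and 12.6% of all genes were called higher. These counts hold ADAMTS4 (1.129 and 1.749 normalized reads in siNT and siMLK4 vehicle) and ADAMTS15 (0.3461 and 2.745). Both reached 10.67 reads, the minimum of the highest group means, only with doxorubicin, so they could only be called higher and their calls are descriptions. CTSB, which encodes cathepsin B, went from 7447 ± 512 to 14485 ± 565 normalized reads in siNT cells. Knock-down lowered ADAMTS1, a proteoglycan-cutting enzyme, in vehicle (-0.88) and with the drug (-0.87). With the drug it also lowered ADAM12 (-0.80) and CTSL (-1.19). That was 1 of 15 in vehicle and 3 of 15 with the drug, where 3.14% and 2.93% of all genes were called lower. None of the list was called higher, where 2.51% and 2.66% of all genes were. The list medians were -0.12 in vehicle and 0.04 with the drug, against 0.01 and 0.02 for all genes. In vehicle the call of ADAMTS1 was lost without siNT replicate 2 (-0.74) or siMLK4 replicate 3 (-0.67). With the drug it was lost without siNT replicate 1 (-0.89) or 2 (-0.73) or siMLK4 replicate 1 (-0.86) or 3 (-0.74), and that of ADAM12 without siNT replicate 2 (-0.74) or 3 (-0.77) or siMLK4 replicate 1 (-0.80). CTSL in siNT cells was lost without vehicle replicate 3 (0.74) and ADAMTS15 without siMLK4 doxorubicin replicate 2 (0.70).

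All 13 AP-1 and ETS factors listed had values. In vehicle 7 were lower in siMLK4 cells and none higher (FOS, FOSL1, JUN, ETS1, ETV1, ETV4 and ETV5), where 3.14% of all genes were called lower and 2.51% higher, with a median log2 difference of -0.91 against 0.01 for all genes. FOSL1, which encodes FRA-1, went from 2269 ± 124 to 495.4 ± 150 normalized reads (-2.12, SE 0.16, limma adjusted p = 8.4e-07), and ETV5 from 1102 ± 328 to 203.8 ± 21 (-2.14, SE 0.18, adjusted p = 2.3e-06). With doxorubicin FOSL1 (-1.45) and ETV4 (-0.86) were lower and the other 11 were not called, where 2.93% of all genes were called lower. The drug raised FOS, FOSB and JUN in both siRNA groups, ELF3 in siNT cells, and ETV1 and ETV5 in siMLK4 cells, and lowered FOSL1 in siNT cells. That was 4 of 13 raised in siNT cells and 5 of 13 in siMLK4 cells, where 12.1% and 12.6% of all genes were called higher. FOS had 7.882 ± 1.66 reads in siMLK4 vehicle and 147.1 ± 26.6 with the drug. JUN in siNT cells was lost without vehicle replicate 3 (0.70), and ETV1 in siMLK4 cells without vehicle replicate 3 (0.63) or doxorubicin replicate 2 (0.70). FOSL1 in siNT cells was lost with library totals (-0.65). Whether these factors act on the proteases was not tested.

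**Figure D4:**
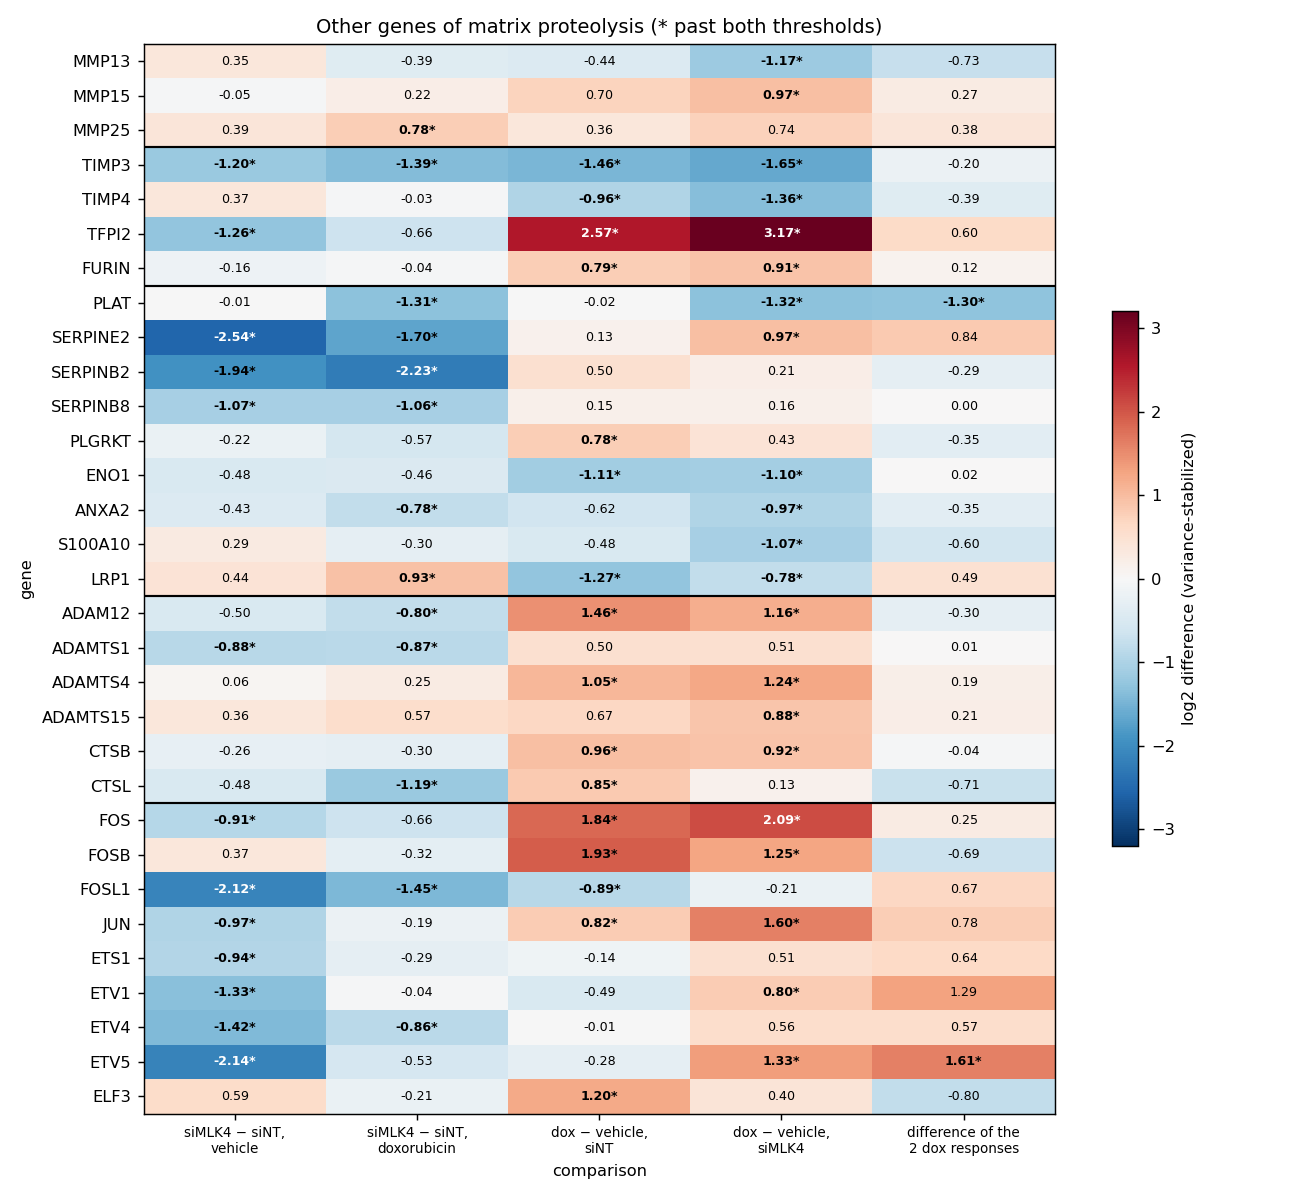
Log2 differences on the variance-stabilized scale (colour and number) of the 31 genes in the 5 lists that were called in at least 1 comparison, by comparison, with an asterisk for calls and black lines between the lists. From the top the lists are other MMPs, MMP inhibitors and activators, plasminogen system, sheddases and other proteases, and AP-1 and ETS factors. The 3 serpins, TIMP3, ADAMTS1, FOSL1 and ETV4 are called lower in both siRNA comparisons, and PLAT in those with siMLK4 and doxorubicin.

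The cell label was checked against markers. The epithelial genes EPCAM, CDH1, KRT8 and KRT18 were all expressed, and so were the basal genes KRT5, KRT6A, KRT14, KRT17 and TP63. KRT18 was called lower with doxorubicin in both siRNA groups (-1.18 and -1.28), and the other 3 epithelial genes were not called. In siNT cells KRT8 went the other way (0.44, limma adjusted p = 0.04) and EPCAM had -0.04. Summed over the 4 epithelial genes, siNT libraries had 52549 to 69268.5 normalized reads in vehicle and 51551 to 60386 with doxorubicin. The siMLK4 libraries had 45942 to 55381 in vehicle and 32063 to 43883 with doxorubicin. Summed over the 5 basal genes the level was 45916 to 51613 normalized reads in siNT vehicle, 46283 to 48702 in siMLK4 vehicle, 20974 to 24327 in siNT with doxorubicin and 12895 to 15458 in siMLK4 with doxorubicin, with KRT5, KRT6A, KRT14 and TP63 called lower under the drug in both siRNA groups. Between the siRNAs KRT6A (-1.19) and KRT14 (-1.05) were called lower in siMLK4 vehicle, where KRT5 had a difference of 0.64 (20878 and 32257 reads, not called), and KRT6A (-1.03), KRT14 (-1.26) and KRT17 (-0.82) in siMLK4 cells with doxorubicin. PGR was at 0 in all vehicle libraries and was called higher with doxorubicin in both siRNA groups, at 13.27 ± 4.75 normalized reads in siNT and 11.66 ± 4.3 in siMLK4 cells (limma adjusted p = 6.9e-06 and 1.2e-05). These calls are descriptions, since PGR reached 10.67 reads, the minimum of the highest group means, only with doxorubicin and could only be called higher there. ESR1 had 46.54 to 117.1 normalized reads by group and was called lower with doxorubicin in siMLK4 cells (-0.78). ERBB2, the HER2 gene, had 1459 to 1893 normalized reads by group. Of the fibroblast markers COL1A2, COL3A1 and DCN were not analysed here, and the 3 with values summed to 281.9 to 833.5 reads per library. COL1A1 gave the largest part of that sum in all groups and was higher in siMLK4 than in siNT vehicle (0.78, limma adjusted p = 0.00041), the direction of MMP14 and TIMP2. LUM was called lower with doxorubicin in both siRNA groups (-1.56 and -2.05). Of the leukocyte markers CD68 and CD163, and both endothelial markers PECAM1 and CDH5, were not analysed here, and PTPRC, CD14 and CSF1R summed to 38.75 to 79.22 reads per library. PTPRC was called higher with doxorubicin in siMLK4 cells, at a mean of 17.86 normalized reads against 1.745 (0.84, limma adjusted p = 0.00018). PTPRC too reached a group mean of 10.67 only with doxorubicin. CSF1R went the other way in siMLK4 cells, from 40 to 13.58 reads without overlap (-0.67, limma adjusted p = 0.00028, under the fold threshold). CD14 had a difference of 0.22 there and was not called. The part of these markers in the results was not tested.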

How the data were processed

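HCC1806 RNA was poly(A)-selected and sequenced (KAPA RNA HyperPrep). Per the labels, the authors used Trimmomatic 0.39, HISAT2, HTSeq 0.6.0 (strand set to reverse in the methods) and DESeq2 1.26.0. The labels name genome build hg19 and the methods GRCh38, so genes were matched by Ensembl ID, and coordinates are those of GENCODE 44 or RefSeq GRCh38.p14. The deposited values were variance-stabilized log2-scale values with a floor of 4.76. Inverting the transform gave normalized reads, and whole reads in 100% of values (tolerance 0.05) after multiplying by size factors of 0.852 to 1.199. Of the 17013 genes, 16957 had an annotation, and the highest group mean of every gene reached 10.67 normalized reads or more.

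Differences were tested on the deposited values with limma 3.58.1 (R 4.3.3, variance trend, 12 libraries, 4 group means, 5 contrasts), checked on simulated data. The genes and lists were chosen with earlier results of these data known. Named are the 9 genes, MAP3K21, every list gene called in at least 1 comparison, and the 5 genes most like MMP1 and PLAU, apart from withheld items, which are not reported here and were left out of the list counts. Other genes are named as background or markers, after their values were seen. Replicate pairs differed beyond sampling noise (chi-square per degree of freedom 7.19 to 67.25). Same-numbered libraries deviated together for doxorubicin in siNT cells (r = 0.46, 0.11 and 0.20) and for the siRNAs under doxorubicin (0.19, 0.52 and 0.56), read from the values only, although in siNT cells a pair with different numbers (3 and 2) reached 0.31. The alternatives, which for list genes were chosen after seeing the data, comprised limma-voom, log2(reads + 1) and log2(reads + 0.25), TMM, library totals, a mean filter of 50 reads, no trend, only the groups compared, replicate blocks, leaving out each library, and adjusted p under 0.05 alone.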

Additional observations from a re-analysis of the deposited data

Results flagged for a closer look

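The difference between the doxorubicin responses of the 2 siRNA groups (siMLK4 minus siNT, log2, limma adjusted p under 0.05 over all genes) picked out 6 of the 59 list genes with values. Over all 17013 genes 204 passed. None of the 6 proteases, inhibitors and receptors other than MMP1, which was not tested, was picked out. PLAT responded more negatively in siMLK4 cells (-1.30, adjusted p = 0.0073), as did ELF3 (-0.80, adjusted p = 0.033). SERPINE2 (0.84, adjusted p = 0.047), JUN (0.78, adjusted p = 0.036), ETV1 (1.29, adjusted p = 0.017) and ETV5 (1.61, adjusted p = 0.0074) responded more positively. The adjusted p of 4 of these genes was above 0.05 in some alternatives, up to 0.11 for SERPINE2 (14 of 20 alternatives, among them leaving out any library but siNT vehicle replicate 2), 0.12 for JUN (12 of 20, among them any library but siNT vehicle replicate 3), 0.082 for ELF3 (10 of 20, any library but siMLK4 vehicle replicate 2 and siMLK4 doxorubicin replicate 3) and 0.056 for ETV1 (2 of 20, without siNT doxorubicin replicate 2 or siMLK4 doxorubicin replicate 2). The ETV5 difference was 1.47 to 1.70, with an adjusted p of 0.011 to 0.03, in each of 11 fits without 1 library (all but siNT vehicle replicate 2), 1.81 (adjusted p = 0.011) with limma-voom and 1.61 (adjusted p = 0.015) with the replicate block over all 12 libraries, so none of these was under 0.01. JUN, ETV1, ETV5 and SERPINE2 were also lower in siMLK4 than in siNT vehicle, and those vehicle libraries enter both values.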

How the results depend on the processing

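No result changed sign while called. With adjusted p under 0.05 alone, 9745 genes passed for doxorubicin in siNT cells and 9858 in siMLK4 cells, 4381 for the siRNAs in vehicle, 4219 under doxorubicin and 204 for the difference of responses, instead of 3859, 3949, 961, 950 and 47. Of the 6 genes other than MMP1, which was counted only between the siRNAs under doxorubicin, 2 then passed for doxorubicin in siNT cells, 1 in siMLK4 cells and 5 for the siRNAs in vehicle, instead of 0, 0 and 3. The counts for the siRNAs include MMP10, whose calls there are descriptions, since its row rests on its siNT level. For the siRNAs in vehicle 1483 genes were called with limma-voom, 1613 with log2(reads + 1), 1574 with log2(reads + 0.25) and 611 with only the groups compared. Under doxorubicin limma-voom called 1466. The difference of responses gave 29 calls with limma-voom and 27 with log2(reads + 0.25). Same-numbered libraries had r of -0.72, 0.32 and -0.52 for the siRNAs in vehicle (0.69 and 0.65 for numbers 1 with 3 and 3 with 1) and -0.08, 0.18 and 0.34 for doxorubicin in siMLK4 cells. With the replicate number as a block in the vehicle groups alone, where the libraries share only a number, 0 genes and 0 of the 6 were called, and MAP3K21 (-2.24) had an adjusted p of 0.034. The block changed no call of the 7 genes in any other comparison, but over all 12 libraries it ended that of ETV5 for the difference of responses (adjusted p = 0.015). Of 65 calls among the listed genes, 37 were kept in all alternatives and 28 were lost in at least 1, the alternatives for these genes being chosen after seeing the data. Library totals also ended siRNA calls of ANXA2, ADAM12 and ADAMTS1 and the fall of LRP1 in siMLK4 cells, and only the groups compared ended calls of PLAUR, MMP25, ADAMTS1 and ETS1. Leaving out 1 library in turn gave 0 to 37 calls for the difference of responses (0 without siMLK4 doxorubicin replicate 1) and 0 to 1 of the 6 genes for doxorubicin in siMLK4 cells (PLAU, without siMLK4 doxorubicin replicate 3). The 3 libraries a group limit the precision, and MMP10 in siMLK4 cells rests on few reads.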
